A study of Homo sapiens with 3 samples.

Results

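The transcripts of BAP1 and of 9 proteins known as partners of the BAP1 deubiquitinase complex were followed across A375SM melanoma cells in which BAP1 or PRAME had been knocked down. The 10 genes, chosen by symbol, were BAP1, ASXL1, ASXL2, HCFC1, OGT, FOXK1, FOXK2, MBD5, MBD6 and KDM1B. All 10 were in the table of 24424 genes, and all 10 were among the 11956 genes whose mean count reached 50, which are called measured here. A375SM is an established metastatic derivative of the human melanoma line A375. The cells had been infected with lentiviruses whose vectors carried a green fluorescent reporter, and reporter-positive cells were kept as stable populations. The group shBAP1 carried a hairpin against BAP1, the group shPRAME a hairpin against PRAME, and the group shEmpty the control vector, whose cells the labels give as wild type. All 3 populations therefore shared infection and selection by fluorescence. The series text calls the control a non-targeting hairpin while its name is that of an empty vector. Each target was lowered in 1 population with 1 hairpin vector named, so effects of a hairpin on other transcripts cannot be told apart from effects of lowering its target.

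BAP1 is a nuclear deubiquitinase that removes monoubiquitin from histone H2A, the mark written by Polycomb repressive complex 1. It needs an ASXL protein, whose deubiquitinase adaptor domain activates it, and it works on chromatin with further partners, among them the forkhead factors FOXK1 and FOXK2, the host cell factor HCF-1 and the methyl-CpG-binding domain proteins MBD5 and MBD6. BAP1 is a tumour suppressor of uveal melanoma, mesothelioma and inherited predisposition to melanocytic tumours. PRAME is a cancer-testis antigen expressed in many melanomas.

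With 1 library a group, none of the differences below could be checked against replicates, and no p-value is given. Library totals ran from 14181829 to 19430130 counts. Levels are scaled counts relative to library size (CPM) with the exact 95% interval of the count, and ratios between libraries carry an exact 95% interval. These intervals cover counting error only. A gene was called higher or lower where its ratio was at least 2-fold and the interval left out no change, and such a call describes a pair of libraries rather than the conditions. PRAME had 6132 counts in shEmpty, 6748 in shBAP1 and 1966 in shPRAME, or 327, 455 and 108 CPM. It was thus lowest in the library with its own hairpin, at 32.9% of the control. Its ratio to the control in shBAP1 was 1.39 (1.34 to 1.44). The summed level of the 8 melanoma and pigment-cell markers, PRAME included, was 1227 CPM in shEmpty, 1401 CPM in shBAP1 and 923 CPM in shPRAME, and they did not move together. SOX10 had 9482 counts in shEmpty, 5442 in shBAP1 and 12019 in shPRAME, and MITF had 5807, 3543 and 2088. The pigment enzyme genes TYR (4, 573 and 0 counts) and DCT (192, 1668 and 6) and the marker S100B (1356, 2768 and 790) were highest in shBAP1 and lowest in shPRAME, while PMEL and MLANA had at most 34 counts in any library. The summed level of the 8 fibroblast markers, all in the table and none at 0, was 73.4 CPM in shEmpty, 275 CPM in shBAP1 and 805 CPM in shPRAME. COL1A2 made up most of it in both knockdown libraries, with 2529 and 12250 counts, beside 3 and 23 for COL1A1. The keratinocyte, endothelial and immune cell markers reached at most 53.7, 19.96 and 150 CPM in sum. Each of these sums was mostly 1 gene, namely KRT10 (53.1 CPM in shBAP1), TIE1 (19.6 CPM in shPRAME) and CD68 (144 CPM in shPRAME). The part of these markers in the results below was not tested. In bulk RNA, fewer cells of a type and less RNA per cell cannot be told apart.

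In the shBAP1 library BAP1 itself was the 1 member called, and it was lower. The 9 partners lay between -0.63 and 0.28 on the log2 ratio scale against shEmpty, and their median was -0.07 beside -0.03 for all measured genes. In the shPRAME library 1 member, MBD5, was called and was higher, and the partners lay between -0.61 and 1.66 with a median of -0.19 beside -0.06. Of all measured genes 14.1% were called in shBAP1 against shEmpty (5.53%, or 661 genes, higher and 8.57%, or 1025 genes, lower) and 19.3% in shPRAME against shEmpty (10.2% higher and 9.08% lower). The 1 member called in shBAP1 is the target of its hairpin, and none of the 9 partners was called there. In shPRAME the 1 member of 10 called was near or below these shares. Scaling by total count moved the median of all genes in shBAP1 from -0.03 to 0.09 and its calls to 829 higher and 838 lower, with BAP1 still the 1 member called. Counting intervals that leave out no change are frequent at this depth, at 73.0% of measured genes in shBAP1 and 79.1% in shPRAME, so a narrow interval alone sets no member apart.

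**Figure D1:**
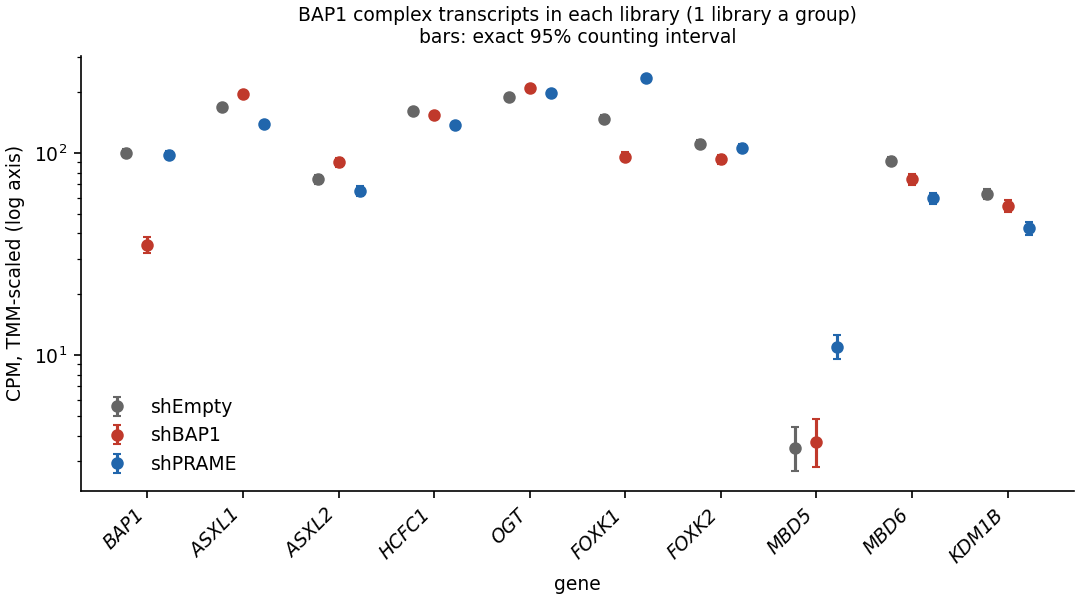
Level of each gene in CPM (log axis) in the shEmpty, shBAP1 and shPRAME libraries, 1 point a library with its exact 95% counting interval. BAP1 is low in shBAP1 (35.2 CPM), MBD5 is the scarcest transcript and is highest in shPRAME (10.99 CPM), and FOXK1 runs from 95.9 CPM in shBAP1 to 235 CPM in shPRAME.

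BAP1, the catalytic subunit, had 1874 counts in shEmpty, 522 in shBAP1 and 1790 in shPRAME. Its level was 100.0 CPM (95.5 to 105), 35.2 CPM (32.2 to 38.3) and 97.9 CPM (93.4 to 103) in that order. The shBAP1 library was the low one, and the intervals of the other libraries overlapped. BAP1 was thus at 35.2% of its control level in the library with its own hairpin (31.8% to 38.8%), a log2 ratio of -1.51, which lay between -1.52 and -1.39 under the other scalings, the pseudocount and the corrections for chromosome, GC content and length. In that comparison 519 of the 11956 measured genes, or 4.34%, had a ratio as low or lower. In shPRAME the BAP1 ratio was 0.979 (0.917 to 1.04). Its sign changed with total-count scaling, upper-quartile scaling and subtraction of the chromosome median. With GC and length trends removed the ratio was 0.835, below the counting interval.

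ASXL1 and ASXL2, the Polycomb-related adaptors that activate BAP1, lay on the same side of the control as each other in each library. ASXL1 had 3173 counts in shEmpty, 2910 in shBAP1 and 2547 in shPRAME, or 169, 196 and 139 CPM. ASXL2 had 1391, 1335 and 1192 counts, or 74.2, 89.9 and 65.2 CPM. For both genes shBAP1 was the highest library and shPRAME the lowest. Against shEmpty the ratios in shBAP1 were 1.16 for ASXL1 (1.10 to 1.22) and 1.21 for ASXL2 (1.12 to 1.31), and in shPRAME 0.823 (0.781 to 0.867) and 0.878 (0.812 to 0.9495). All 4 ratios were far within the 2-fold limit, and 60.2% or more of measured genes lay as far from no change. With the chromosome medians subtracted, the log2 ratios in shPRAME moved from -0.28 to -0.05 for ASXL1 and from -0.19 to -0.03 for ASXL2. In shBAP1 they moved from 0.21 to 0.31 and from 0.28 to 0.17. Removal of GC and length trends gave -0.41 and -0.29 in shPRAME.

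The division of reads between the 2 paralogues does not depend on the scaling between libraries. ASXL1 took 69.5% of the pair's reads in shEmpty (68.2% to 70.9%), 68.6% in shBAP1 (67.1% to 69.9%) and 68.1% in shPRAME (66.6% to 69.6%). The 3 intervals overlapped, and the ratio of ASXL1 to ASXL2 changed by a factor of 0.956 in shBAP1 (0.872 to 1.05) and 0.937 in shPRAME (0.852 to 1.03). ASXL3, the third paralogue, is not one of the 10 genes and had 0 counts in shEmpty, 2 in shBAP1 and 0 in shPRAME. A count of 0 allows up to 0.0657% of the ASXL reads in shEmpty and 0.0802% in shPRAME.

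HCFC1 encodes HCF-1, a chromatin adaptor that binds BAP1 through a short motif, and OGT encodes the transferase that adds O-linked N-acetylglucosamine to nuclear proteins and cleaves HCF-1. HCFC1 had 3018 counts in shEmpty, 2283 in shBAP1 and 2509 in shPRAME, or 161, 154 and 137 CPM. Its ratio was 0.955 in shBAP1 (0.904 to 1.01), with a sign that changed under total-count and upper-quartile scaling and after removal of GC and length trends, and 0.852 in shPRAME (0.808 to 0.899). With GC and length trends removed, the HCFC1 ratio in shPRAME was 0.641. OGT had 3550, 3102 and 3636 counts, or 189, 209 and 199 CPM. It was the most even member across the 3 libraries, with ratios of 1.10 in shBAP1 (1.05 to 1.16) and 1.05 in shPRAME (1.00 to 1.10). The intervals of the OGT level overlapped between shPRAME and each of the other libraries.

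OGT was also set against MGEA5, the older symbol of OGA, whose product removes the sugar that OGT adds. MGEA5 had 2712 counts in shEmpty, 1892 in shBAP1 and 2726 in shPRAME. OGT therefore took 56.7% of the reads of the 2 genes in shEmpty (55.5% to 57.9%), 62.1% in shBAP1 (60.8% to 63.5%) and 57.2% in shPRAME (55.9% to 58.4%). The shBAP1 library stood above the others, whose intervals overlapped. The ratio of OGT to MGEA5 reads was 1.25 times that of the control in shBAP1 (1.16 to 1.35) and 1.02 times in shPRAME (0.949 to 1.09).

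The forkhead factors FOXK1 and FOXK2 bind DNA and bring BAP1 to promoters and enhancers. FOXK1 had 2775 counts in shEmpty, 1423 in shBAP1 and 4294 in shPRAME. Its level was 148 CPM (143 to 154), 95.9 CPM (90.9 to 101) and 235 CPM (228 to 242), so that the 3 intervals were apart, with shBAP1 lowest and shPRAME highest. Relative to the control FOXK1 reached 64.7% in shBAP1 (60.7% to 69.0%) and 159% in shPRAME (151% to 166%). Neither difference reached 2-fold, and 28.1% and 35.7% of measured genes lay as far from no change. FOXK1 lies on chromosome 7, whose measured genes had a median log2 ratio of 0.39 in shPRAME and 0.14 in shBAP1, and with these medians subtracted its log2 ratios were 0.28 and -0.77.

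FOXK2 had 2089 counts in shEmpty, 1385 in shBAP1 and 1945 in shPRAME, or 111, 93.3 and 106 CPM. Its ratios were 0.837 in shBAP1 (0.781 to 0.896) and 0.954 in shPRAME (0.897 to 1.02), and the latter changed sign under upper-quartile scaling. FOXK1 took 57.1% of the FOXK reads in shEmpty (55.6% to 58.4%), 50.7% in shBAP1 (48.8% to 52.5%) and 68.8% in shPRAME (67.7% to 70.0%). The 3 shares did not overlap. Relative to FOXK2, FOXK1 was 0.773 times the control in shBAP1 (0.704 to 0.850) and 1.66 times in shPRAME (1.54 to 1.80). FOXK2 overlaps WDR45B on the opposite strand, and 0.767% of the windows of 100 bases in the longest FOXK1 transcript also occur in transcripts of other genes.

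MBD5 and MBD6 carry methyl-CpG-binding domains and are known as binders of the BAP1 complex. MBD5 was the scarcest member, with 65 counts in shEmpty, 55 in shBAP1 and 201 in shPRAME. Its level was 3.47 CPM (2.68 to 4.42), 3.70 CPM (2.79 to 4.82) and 10.99 CPM (9.53 to 12.6), so that shPRAME stood apart from the others, which overlapped. MBD5 was 3.17-fold higher in shPRAME than in shEmpty (2.38 to 4.26), and 7.59% of measured genes lay as far from no change. Its ratio in shBAP1 was 1.07 (0.732 to 1.55), an interval that holds changes of 1.5-fold upward, and the sign changed when the chromosome median was subtracted. MBD5 remained above 2-fold in shPRAME under each alternative scaling, pseudocount and correction (2.68-fold to 3.52-fold), but a count minimum of 200 left it out of the measured genes.

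MBD6 had 1708 counts in shEmpty, 1100 in shBAP1 and 1090 in shPRAME, or 91.2, 74.1 and 59.6 CPM. It was lowest in shPRAME, at 65.4% of the control (60.6% to 70.6%), and at 81.3% in shBAP1 (75.3% to 87.7%). Neither passed the 2-fold limit. The log2 ratio of MBD6 in shPRAME, -0.61, became -0.27 with the chromosome median subtracted and -0.93 with GC and length trends removed. MBD5 took 3.67% of the reads of the pair in shEmpty (2.84% to 4.65%), 4.76% in shBAP1 (3.61% to 6.15%) and 15.6% in shPRAME (13.6% to 17.7%). The shares in shEmpty and shBAP1 overlapped and that in shPRAME did not. The ratio of MBD5 to MBD6 reads was 4.84 times the control in shPRAME (3.604 to 6.58) and 1.31 times in shBAP1 (0.893 to 1.93).

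Both genes overlap others on the opposite strand, and whether reads were counted by strand is not given in the sources used here. MBD5 also overlaps AC019226.1 and AC019226.2 on its own strand, and no counts were given under these symbols. The more abundant ORC4, which overlaps MBD5, had 1205 counts in shEmpty, 1388 in shBAP1 and 1362 in shPRAME, so its log2 ratio in shPRAME was 0.21 beside 1.66 for MBD5. DDIT3 and DCTN2, which overlap MBD6, had 565 and 1688 counts in shPRAME beside 471 and 2424 in shEmpty. No window of 100 bases in the longest MBD5 or MBD6 transcript occurred in another gene's transcripts.

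**Figure D2:**
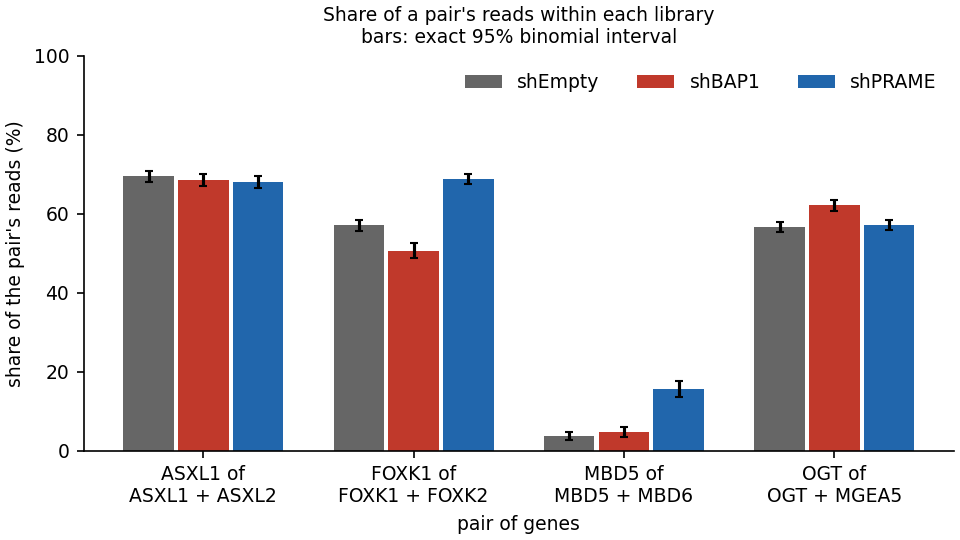
Share of the reads of a gene pair taken by the first gene (percent), with its exact 95% binomial interval, in each library. The ASXL1 share is level at 68.1% to 69.5%, FOXK1 runs from 50.7% in shBAP1 to 68.8% in shPRAME, MBD5 reaches 15.6% in shPRAME, and the share of OGT beside MGEA5 is highest in shBAP1 at 62.1%.

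The bases before the start of FOXK1 and MBD5, the partners highest in shPRAME relative to control, are shown with those of their paralogues, because in both pairs the division of reads differed between libraries. They are the 250 bases upstream of a RefSeq transcription start (build GRCh38.p14, which is not the build of the files), all on the plus strand, at chr7:4682045-4682294 for FOXK1, chr17:82519482-82519731 for FOXK2, chr2:148020761-148021010 for MBD5 and chr12:57522574-57522823 for MBD6. Capitals mark the E-box CACGTG, the palindrome read by factors such as MITF and MYC.
FOXK1: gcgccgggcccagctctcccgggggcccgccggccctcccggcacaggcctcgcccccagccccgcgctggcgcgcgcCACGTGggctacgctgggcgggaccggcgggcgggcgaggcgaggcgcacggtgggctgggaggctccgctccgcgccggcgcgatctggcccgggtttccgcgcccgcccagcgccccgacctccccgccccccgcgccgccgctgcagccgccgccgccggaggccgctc
FOXK2: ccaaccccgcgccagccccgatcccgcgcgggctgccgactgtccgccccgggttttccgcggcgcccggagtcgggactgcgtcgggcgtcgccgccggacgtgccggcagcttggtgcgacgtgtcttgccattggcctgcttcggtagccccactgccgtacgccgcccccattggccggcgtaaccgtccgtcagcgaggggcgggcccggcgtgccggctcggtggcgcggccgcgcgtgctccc
MBD5: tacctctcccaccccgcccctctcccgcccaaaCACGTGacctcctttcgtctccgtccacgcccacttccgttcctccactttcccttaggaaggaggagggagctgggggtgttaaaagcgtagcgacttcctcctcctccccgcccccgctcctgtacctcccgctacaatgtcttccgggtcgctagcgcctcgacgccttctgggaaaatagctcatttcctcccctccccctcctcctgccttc
MBD6: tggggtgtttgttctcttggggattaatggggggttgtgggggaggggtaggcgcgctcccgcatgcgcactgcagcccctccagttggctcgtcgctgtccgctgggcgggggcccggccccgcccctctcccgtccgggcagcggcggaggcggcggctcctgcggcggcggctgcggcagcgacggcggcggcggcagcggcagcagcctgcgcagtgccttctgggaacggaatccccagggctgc

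FOXK1 held 1 E-box, 172 to 167 bases before its start, and MBD5 held 1, 217 to 212 bases before its start, while the windows of FOXK2 and MBD6 held none. A second MBD5 start in the table, further into the gene, had no E-box in its window. Of the 8 members with an entry in the RefSeq table, these were the 2 with an E-box. The E-box was among 6 motifs searched on both strands and was chosen after the sequences had been seen. Of the 1042 measured genes with an E-box, 8.45% were called higher in shPRAME, beside 9.70% of all 9126 with an entry, which include them. Their median log2 ratio was -0.12 beside -0.08. Whether the E-box has a part in the levels of FOXK1 and MBD5 was not tested. These 8 members have 12 windows in all, since some have more than 1 start, and shares over all windows compare with counts of windows. The E-box was in 2 of the 12 (6.34% of all 35116 promoter windows of that length), the GC box GGGCGG in 9 (42.6% of all windows), the ETS motif CCGGAAG in 5 (8.52%), the YY1 core AAGATGGC in 1 (1.36%), the CCAAT box in 1 (32.0%) and the forkhead core TGTTTAC in none (2.98%). The GC box windows belong to 8 members and the ETS windows to 3. The shares over all windows include genes that were not measured here. Of the 9126 measured genes with an entry, 6868 had a GC box and 1781 an ETS motif. FOXK1 had the window richest in G and C of the 4 shown (85.6%, with 44 CpG) and MBD5 the poorest (62.4%, with 17 CpG), beside medians of 58.0% and 11 over all windows.

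KDM1B encodes LSD2, a flavin-dependent demethylase of histone H3. It had 1179 counts in shEmpty, 812 in shBAP1 and 775 in shPRAME, or 62.9, 54.7 and 42.4 CPM. The control was the highest library and shPRAME the lowest. Relative to the control KDM1B reached 86.9% in shBAP1 (79.4% to 95.1%) and 67.4% in shPRAME (61.4% to 73.8%). Its chromosome, 6, had a median log2 ratio of 0.40 in shBAP1, and with that subtracted the KDM1B ratio there moved from -0.20 to -0.61.

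**Figure D3:**
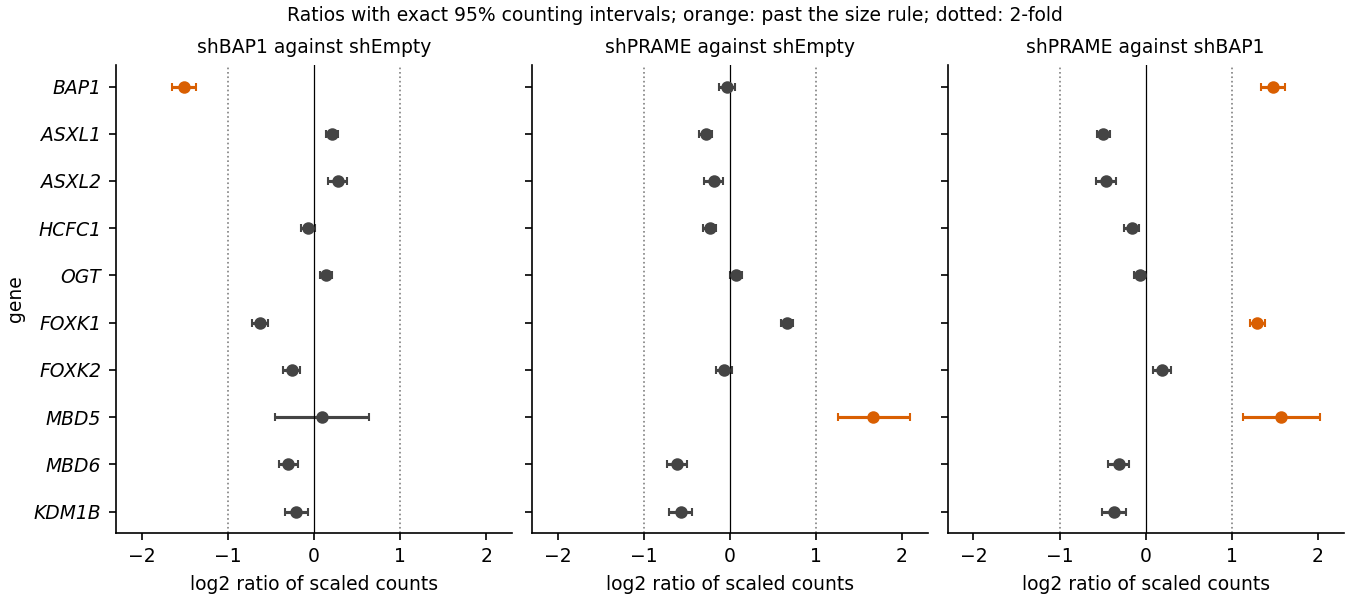
Log2 ratio of scaled counts for the 10 genes in the 3 comparisons, with exact 95% counting intervals; dotted lines mark 2-fold and orange marks genes past the size rule. BAP1 is called in shBAP1 (-1.51), MBD5 in shPRAME (1.66), and BAP1, FOXK1 and MBD5 in the direct comparison (1.48, 1.29 and 1.57).

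Compared directly, 3 of the 10 members were called higher in shPRAME than in shBAP1 and none was called lower, beside 25.1% of all measured genes called in either direction, 14.2% called higher and 10.9% called lower. They were MBD5 at 2.97-fold (2.19 to 4.08), BAP1 at 2.78-fold (2.52 to 3.08) and FOXK1 at 2.45-fold (2.31 to 2.60). BAP1 is the gene that the hairpin of the shBAP1 library targets. The FOXK1 call ended when GC and length trends were removed (log2 ratio 0.93). The other 7 members had ratios from 0.711 for ASXL1 (0.674 to 0.750) to 1.14 for FOXK2 (1.06 to 1.22), and that of KDM1B (0.775) changed sign when chromosome medians were subtracted. Removal of GC and length trends moved the ratio of HCFC1 from 0.892 to 0.602 and that of MBD6 from 0.805 to 0.587. Both ASXL genes, HCFC1, OGT, MBD6 and KDM1B had ratios below 1, and the median of the 9 partners was -0.16 beside -0.06 for all genes.

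**Figure D4:**
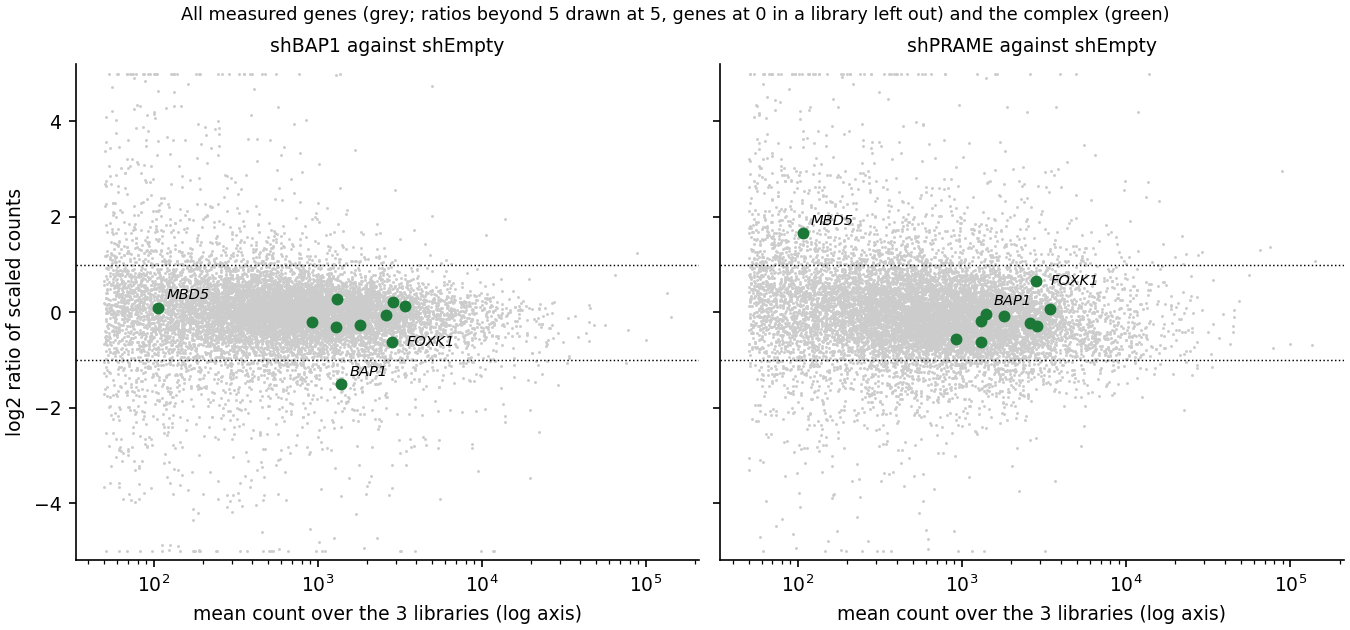
Log2 ratio of scaled counts against the mean count over the 3 libraries (log axis) for the measured genes with a count in both libraries (grey, drawn at 5 where farther out) and the 10 genes (green); dotted lines mark 2-fold. BAP1 in shBAP1 (-1.51) and MBD5 in shPRAME (1.66) lie outside these lines, FOXK1 is at -0.63 and 0.67, and the other members lie between -0.61 and 0.28.

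Reads of the partners were also set against those of BAP1. Any gene with a ratio above that of BAP1 in shBAP1 has more reads per BAP1 read there, and 4.34% of all measured genes had a ratio as low or lower, so the rise of all 9 partners relative to BAP1 describes the low BAP1 count. For each BAP1 read there were 1.69 ASXL1 reads in shEmpty, 5.57 in shBAP1 and 1.42 in shPRAME. For HCFC1 the values were 1.61, 4.37 and 1.40, and for FOXK1 1.48, 2.73 and 2.40. Levels of different genes were compared per length of the longest transcript, on the scale of CPM per kilobase. In shEmpty OGT came first at 34.7, followed by BAP1 at 25.4, ASXL1 at 24.01, MBD6 at 21.3, FOXK2 at 21.2, HCFC1 at 18.2, KDM1B at 16.5, FOXK1 at 13.2, ASXL2 at 5.76 and MBD5 at 0.365. BAP1 was in second place in shEmpty and shPRAME and in seventh in shBAP1, at 8.93. With the median length of coding transcripts in place of the longest, the upper places changed (MBD6 came first in shEmpty) and BAP1 had rank 4 in shEmpty and shPRAME and rank 5 in shBAP1, while ASXL2 and MBD5 remained the lowest in all 3 libraries. Which transcripts these cells use was not tested.

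Enzymes of histone H2A ubiquitin and members of the family of BAP1 were followed through lists of related genes. The list of H2A deubiquitinases was not restricted to the mark that Polycomb repressive complex 1 writes. Over all measured genes 14.1% were called in shBAP1, 19.3% in shPRAME and 25.1% in the direct comparison, and these shares are the background of the list counts. Of 6 measured deubiquitinases of H2A other than BAP1, none was called in shBAP1 (median log2 ratio 0.23 beside -0.03 for all genes) and 1 was lower in shPRAME. USP16 and BRCC3 had the largest ratios in shBAP1, 1.46 (1.34 to 1.59) and 1.46 (1.32 to 1.61). BRCC3, a deubiquitinase of the BRCA1-A complex, had 732 counts in shEmpty, 844 in shBAP1 and 299 in shPRAME and was 2.39-fold lower in shPRAME (2.09 to 2.74). Of the UCH family, to which BAP1 belongs, UCHL3 and UCHL5 were measured and neither was called against shEmpty. UCHL3 was at 20.2 CPM in shEmpty, 32.0 in shBAP1 and 11.6 in shPRAME, and UCHL5, a proteasome and INO80 subunit, at 187, 219 and 104 CPM. Both were called lower in shPRAME than in shBAP1 (2.76-fold and 2.11-fold).

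None of the 12 genes of the H2A ubiquitin ligase core, the Polycomb writers opposed by BAP1, was called in shBAP1 (median -0.21). RING1, a catalytic subunit, came nearest with 483 counts in shEmpty and 735 in shBAP1, a ratio of 1.92 (1.71 to 2.16). RYBP, a subunit of variant complexes, had 1592 and 727 counts, a ratio of 0.576 (0.527 to 0.630). In shPRAME 1 of the 12 was lower, YAF2, a paralogue of RYBP, at 2.14-fold (1.79 to 2.57), with a list median of -0.24. In the direct comparison none of the 12 was called, with RYBP at 1.93 (1.77 to 2.11) and BCOR at 1.88 (1.76 to 2.01).

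Other reported binding partners, regulators and substrates of BAP1 were also within 2-fold in shBAP1, where none of 11 measured genes was called (median -0.25). KLF5, a transcription factor described as a BAP1 substrate, had a ratio of 1.85 (1.56 to 2.20), and BRCA1, the repair protein after which BAP1 was named, one of 0.541 (0.500 to 0.585). In shPRAME 3 of the 11 were lower. Among them BRCA1 was 3.02-fold lower (2.77 to 3.29) and its partner BARD1 2.72-fold (2.23 to 3.34). ITPR3, a calcium channel that BAP1 is known to stabilise, had 6853 counts in shEmpty, 3845 in shBAP1 and 12468 in shPRAME. It was called in the direct comparison alone, at 2.63-fold higher in shPRAME (2.54 to 2.73). In that comparison 3 of the 11 were lower, among them BARD1 (2.55-fold) and UCHL5.

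Of the 25 measured partners of HCF-1 and subunits of the histone H3 lysine methyltransferases it binds, 1 was higher and 2 were lower in shBAP1 (median 0.06). ASH2L, a core subunit of the SET1 and MLL methyltransferases, had 3391 counts in shEmpty, 957 in shBAP1 and 2893 in shPRAME. It was 2.81-fold lower in shBAP1 (2.61 to 3.02), close to the size of the BAP1 difference. E2F1, the cell-cycle factor that binds HCF-1, was 2.09-fold lower (1.89 to 2.33), and E2F4 2.03-fold higher (1.88 to 2.20). In shPRAME 3 were lower and none higher (median -0.07), namely E2F1 (3.06-fold, 2.73 to 3.42), RBBP5 (2.59-fold, 2.33 to 2.87) and CXXC1 (2.10-fold, 1.85 to 2.39). In the direct comparison ASH2L was 2.45-fold higher in shPRAME, RBBP5 2.82-fold lower and E2F4 2.06-fold lower.

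The hexosamine pathway makes the sugar nucleotide that OGT uses. Its list here also took in genes of O-linked sugar cycling, among them MGEA5 and EOGT. Of the 9 measured genes of this list 2 were lower in shBAP1 (median -0.20). These were the 2 genes of the pathway's rate-limiting amidotransferase. GFPT2 had 1245 counts in shEmpty, 270 in shBAP1 and 2640 in shPRAME, and GFPT1 3794, 1354 and 4621. In shBAP1 GFPT2 was 3.65-fold lower (3.20 to 4.18) and GFPT1 2.22-fold lower (2.09 to 2.36). In shPRAME GFPT2 was the 1 gene called, 2.17-fold higher (2.03 to 2.33), with a list median of 0.21. Directly compared, GFPT2 was 7.94-fold higher in shPRAME (7.002 to 9.03) and GFPT1 2.77-fold (2.61 to 2.95). The transferase gene OGT itself had ratios of 1.10 and 1.05.

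The families of MBD5, MBD6, KDM1B and the FOXK genes were counted in the same way. None of the 9 genes of the methyl-CpG-binding domain family beyond MBD5 and MBD6 was called there (median 0.11), with SETDB2 at 1.56 (1.39 to 1.76) and MBD3 at 0.655 (0.610 to 0.703). In shPRAME BAZ2B was 2.18-fold higher (1.90 to 2.51) and the methyltransferase gene SETDB2 2.61-fold lower (2.21 to 3.10). SETDB2 was also 4.08-fold lower in shPRAME than in shBAP1. None of the 8 measured genes of the KDM1A and CoREST group, relatives of KDM1B, was called against shEmpty in either library (medians -0.15 and 0.07). RCOR1 had a ratio of 0.657 in shBAP1 (0.591 to 0.729), and PHF21A one of 0.707 in shBAP1 (0.627 to 0.797) and 1.42 in shPRAME (1.29 to 1.55), the latter 2.001-fold higher in shPRAME in the direct comparison. HDAC1 had a ratio of 0.724 in shPRAME (0.689 to 0.762).

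Of 12 measured forkhead factors other than FOXK1 and FOXK2, 2 were lower in shBAP1 and none higher (median -0.45). FOXF1, a mesenchymal regulator, had 550 counts in shEmpty, 57 in shBAP1 and 496 in shPRAME and was 7.65-fold lower in shBAP1 (5.81 to 10.2). FOXJ2 was 2.55-fold lower (2.26 to 2.88). In shPRAME the 1 called factor was FOXM1, which drives mitotic genes, at 4.50-fold lower (4.19 to 4.84), with a list median of -0.01. In the direct comparison 3 were higher in shPRAME and 1 lower, FOXF1 at 7.07-fold and FOXC1 at 3.14-fold among the higher and FOXM1 at 2.86-fold lower.

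**Figure D5:**
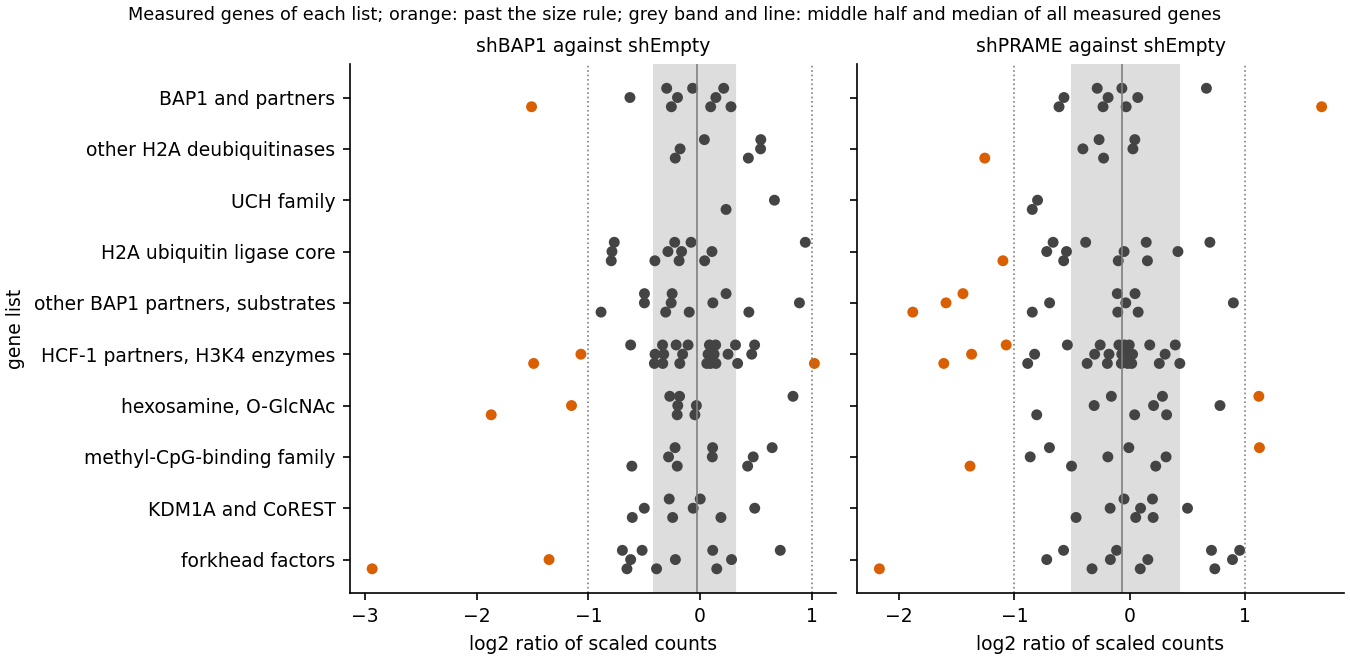
Log2 ratios of scaled counts against shEmpty for BAP1 and its partners and for the measured genes of 9 related lists; orange marks genes past the size rule, and the grey band and line give the range from the lower to the upper quartile and the median of all measured genes. In shBAP1, 8 of the 9 partners lie in the grey band, and in shPRAME 5 of 9.

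The genes whose pattern lay nearest that of BAP1, by distance over the log2 ratios in shBAP1 and in shPRAME, were SEPT5-GP1BB (0.039), LOC202181 (0.051) and IFITM1 (0.059). IFITM1, an interferon-induced membrane protein, had 385 counts in shEmpty, 107 in shBAP1 and 383 in shPRAME. With 3 libraries this likeness rests on 2 values a gene and describes these libraries.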

How the data were processed

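Messenger RNA of 3 A375SM populations was sequenced as paired reads of 100 bases from directional libraries, per the labels' protocols. The file deposited by the authors holds unnormalised read counts, in whole numbers, for every gene symbol. The submitters' processing notes name hg19 (GRCh37) and the tools TopHat, Cufflinks, FastQC and edgeR. Which tool counted the reads, on which annotation and with which strand setting is not given in the sources used here. Every column was used and each group was 1 library.

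TMM factors over the 3 libraries (edgeR 4.0.16 under R 4.3.3) set the scale, and ratios carry exact conditional binomial 95% intervals. Shares of gene pairs carry Clopper-Pearson intervals, and a count of 0 was taken to allow up to 3 counts. GENCODE release 29 (GRCh38), matched by symbol for 95.4% of measured genes, gave chromosomes, lengths, GC content and overlaps. Named genes were all members, up to 3 called genes of each list (or 2 if none was called), and 3 genes nearest BAP1; markers and overlapping genes are named besides. A gene that this rule names is not reported here. The members and lists were chosen with earlier results of these data known. In simulated libraries with counting error only, 50 genes with mean counts above the minimum were made different at each fold. All those made 3-fold, 4-fold or 8-fold different were called in each comparison, and none made 1.5-fold different was. The simulation holds no variation between libraries of a group and says nothing of it. Calculations used Python 3.11.15, scipy 1.17.1, pandas 2.3.3 and statsmodels 0.14.6.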

Additional observations from a re-analysis of the deposited data

How the results depend on the processing

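The member calls changed with the fold limit, the count minimum and the removal of GC and length trends, which ended the FOXK1 call in the direct comparison (log2 ratio 0.93). With a limit of 1.5-fold the members called were 2 in shBAP1 (BAP1 and FOXK1) and 3 in shPRAME (MBD5, FOXK1 and MBD6), beside 30.5% and 41.0% of all measured genes. With a limit of 3-fold they were 0 in shBAP1 and 0 in the direct comparison, beside 6.52% and 11.4%. A count minimum of 200 left 0 members called in shPRAME, because MBD5 was no longer measured, beside 16.0% of the 9574 genes that reached it. In the direct comparison it left 2 (BAP1 and FOXK1), beside 21.9%. Under total-count scaling the median log2 ratio of the members in shBAP1 moved from -0.13 to -0.016. In the comparisons where a member was called, its ratio kept its sign under the scalings, the pseudocount of 1 CPM, and the corrections for chromosome, GC content and length. Total-count scaling moved 9 of the 30 single ratios beyond their counting interval, upper-quartile scaling 5, chromosome medians 15 and the GC and length trends 14, while DESeq2 size factors (1.42.0) and the pseudocount moved none. No paired analysis was possible because each group was 1 library. MBD5, with 55 to 201 counts, has the widest interval of the members.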

Other observations

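The genes beside FOXK1 and MBD5 on their chromosomes, chosen after the members' values were seen, were set beside them. None of the 6 nearest measured genes around FOXK1 (3 on each side) was called in either library against shEmpty. Of all measured genes 14.1% were called in shBAP1 and 19.3% in shPRAME. Their log2 ratios ran from -0.27 to 0.62 in shBAP1, where FOXK1 was at -0.63, and from -0.05 to 0.88 in shPRAME, where FOXK1 was at 0.67. FOXK1 thus lay below all 6 neighbours in shBAP1 and within their range in shPRAME.

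Around MBD5, 1 of the 6 nearest measured genes was called higher and 1 lower in shBAP1, beside 14.1% of all measured genes called. In shPRAME none was called higher and 1 was called lower, beside 10.2% and 9.08% of all measured genes. There MBD5 was at 1.66 and its neighbours ran from -3.42 to 0.85. The lowest was TEX41, a noncoding transcript with 99 counts in shEmpty, 144 in shBAP1 and 9 in shPRAME. KIF5C, a neuronal kinesin heavy chain, had 77, 22 and 135 counts. Next to BAP1 on chromosome 3, the semaphorin gene SEMA3G had 319 counts in shEmpty, 43 in shBAP1 and 572 in shPRAME, a log2 ratio of -2.56 in shBAP1 beside -1.51 for BAP1 itself. The other 5 of the 6 nearest genes were not called in shBAP1, with log2 ratios from -0.68 to 0.44, beside 14.1% of all measured genes called.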
